A study of Mus musculus with 242 samples.

Results

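The 36 genes described here encode proteasome subunits other than those of the immunoproteasome, and 3 proteins that help to build the particle. They were taken by symbol, as every gene on the array whose name is Psma, Psmb, Psmc or Psmd and a number, except the 3 immunoproteasome genes Psmb8, Psmb9 and Psmb10. They are 36 of 18193 genes that had a probe set naming 1 gene. One further symbol with the same start, Psmc3ip, belongs to no subunit and was left out. By place in the particle they are 8 alpha ring genes, 8 beta ring genes, 6 ATPase ring genes, 3 other base genes, 8 lid genes and 3 assembly chaperone genes. Of the 36, 34 were brighter than the array's median probe set on all 242 arrays. The testis-specific alpha gene Psma8 (mean signal 52.8) and the thymus-specific beta gene Psmb11 (mean signal 61.4) were dimmer than it on 224 and 209 of the 242 arrays.

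The proteasome is the barrel-shaped protease that degrades proteins tagged with ubiquitin. The alpha rings close the ends of the barrel and the beta rings hold the proteolytic sites, while the ATPases, the other base subunits and the lid form the cap that binds, unfolds and strips ubiquitin from the substrate. Subunit genes are known to be raised together by the transcription factor NRF1 when the proteasome is short, and in mouse liver some of them also respond to activators of NRF2, the regulator of the oxidant and electrophile response.

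Liver RNA of female B6C3F1 mice was measured on 1-colour arrays, 1 array per mouse, from the right, caudate and median lobes minced together. The mice were 5 weeks old at the start and 18 weeks old at the end of 13 weeks of exposure. There were 46 treated groups from 26 chemicals and 14 control sets, with 3 to 5 mice each. Dosed feed was offered 7 days a week, and gavage or inhalation (6 hours a day) took place on 5. Malathion, an organophosphate insecticide, was fed to 5 mice at 14800 ppm by the dose label (16000 ppm in the titles), against 4 mice on plain feed (set FCO2). 2,3-Benzofuran was given to 3 mice by gavage at 240 mg/kg in corn oil, against 3 corn oil mice. 1,5-Naphthalenediamine (2000 ppm), N-(1-naphthyl)ethylenediamine dihydrochloride (2000 ppm) and pentachloronitrobenzene (8187 ppm) were fed to 3 mice each, and all 3 groups were set against the same 3 mice on plain feed. 1,4-Dichlorobenzene was given by gavage in corn oil at 100, 300, 400, 500 and 600 mg/kg to 4 mice each, against 5 corn oil mice (set CCO5), and 1,2,3-trichloropropane likewise at 2, 6, 20, 40 and 60 mg/kg against another 5 (set CCO6). Naphthalene was inhaled at 0.5, 3, 10, 20 and 30 ppm and methylene chloride at 100, 500, 2000, 3000 and 4000 ppm by 4 mice each, against 5 air-exposed mice each (sets ACO5 and ACO4). Tetrafluoroethylene was inhaled at 1250 ppm by 4 mice, against 4 air-exposed mice (set ACO1). Benzene (100 mg/kg), coumarin (200 mg/kg) and 1,2-dibromoethane (62 mg/kg) were given to 4 mice each by gavage in corn oil, against 4 corn oil mice (set CCO2). 4-Nitroanthranilic acid (10000 ppm, 4 mice), 2,2-bis(bromomethyl)-1,3-propanediol (1250 ppm, 5 mice) and the organophosphate diazinon (200 ppm, 4 mice) were fed and set against FCO2, and tris(2,3-dibromopropyl)phosphate (1000 ppm) and 1-amino-2,4-dibromoanthraquinone (20000 ppm), 4 mice each, against 4 mice on plain feed (set FCO1). 2-Chloromethylpyridine hydrochloride (250 mg/kg) and N-methylolacrylamide (50 mg/kg) were given in distilled water, against set WCO1, and trichlorofluoromethane (3925 mg/kg) and iodoform (93 mg/kg) in corn oil, against set CCO4, with 4 mice in each of these groups. Tetrafluororethane, as the labels spell it (50000 ppm, against ACO1), ethylene oxide (100 ppm, against ACO4) and vanadium pentoxide (2 mg per cubic metre, against set ACO3) were inhaled by 4 mice each. Propylene glycol mono-t-butyl ether was inhaled at 25, 75, 300, 800 and 1200 ppm by 4 mice each (5 at 800 ppm), against the 5 mice of ACO3. Groups of 1 chemical at several doses share 1 control set, so their differences are not independent.

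Each value is log2 of the array signal plus a pseudocount of 17.3, and each difference is treated minus control on that scale, from limma fitted to all genes of a run. Errors are SE unless stated. A gene passed as higher or lower where its p, adjusted after Benjamini and Hochberg for the 18193 genes of the comparison, was under 0.05, whatever the fold. By run codes in the labels the arrays formed run A (54 arrays), B (36), C (18) and D (134), and every treated group was set against controls of its own run. Run A joins 2 run codes, which were not always split alike between treated groups and controls and were a block in its fit. RNA integrity numbers spanned 4.7 to 7.8 in run A and 7.1 to 9.4 over the other runs. Vanadium pentoxide replicate 4 and 1,5-naphthalenediamine replicate 2 were off the common scale and were rescaled. In 5 comparisons between control sets of 1 run, 0 of 36 members passed the limma test, with an unadjusted p under 0.05 for between 2 and 12 members, and between 0 and 0.137% of all genes passed in either direction (0.022% higher and 0.137% lower in ACO5 minus ACO4). They were ACO4 minus ACO3, ACO5 minus ACO3, ACO5 minus ACO4, CCO6 minus CCO5 and, in run A, CCO3 minus WCO1. CCO3 is a set of 4 mice labelled as given distilled water by gavage, although its set name is like those of the corn oil sets. Levels are from bulk liver, where fewer cells of a type and less RNA per cell cannot be told apart.

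The promoters of Psmb5, the chymotrypsin-like catalytic subunit, Psmd5, a chaperone of base assembly, and the lid gene Psmd13 are shown because each of these genes was higher in 4 of the 6 treated groups in which at least 5 members passed the test, and no other member in more than 3. Each is the RefSeq sequence on GRCm38.p6 from 250 bases before to 50 bases after the start of the gene, read on the gene's strand. The Psmb5 promoter lies at chr14:54617946-54618245 on the minus strand, and its capitals mark the core TGACNNNGC of the antioxidant response element, the motif that NRF1 and NRF2 are known to bind. The Psmd5 promoter lies at chr2:34870913-34871212 on the minus strand, and its capitals mark TCTCGCGAGA, a palindrome chosen after this promoter had been read because it occurs there 2 times. The Psmd13 promoter lies at chr7:140882144-140882443 on the plus strand and holds neither.
Psmb5: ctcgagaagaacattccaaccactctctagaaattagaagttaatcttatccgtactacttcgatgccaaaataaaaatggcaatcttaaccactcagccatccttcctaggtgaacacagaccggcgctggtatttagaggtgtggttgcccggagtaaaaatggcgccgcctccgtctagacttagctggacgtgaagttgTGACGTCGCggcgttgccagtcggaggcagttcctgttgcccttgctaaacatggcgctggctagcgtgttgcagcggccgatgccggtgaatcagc
Psmd5: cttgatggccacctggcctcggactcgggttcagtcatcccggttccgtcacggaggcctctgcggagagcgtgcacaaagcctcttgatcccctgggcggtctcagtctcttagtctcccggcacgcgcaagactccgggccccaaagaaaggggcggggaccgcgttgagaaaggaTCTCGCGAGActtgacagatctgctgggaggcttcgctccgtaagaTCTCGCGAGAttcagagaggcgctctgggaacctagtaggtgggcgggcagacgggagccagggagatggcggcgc
Psmd13: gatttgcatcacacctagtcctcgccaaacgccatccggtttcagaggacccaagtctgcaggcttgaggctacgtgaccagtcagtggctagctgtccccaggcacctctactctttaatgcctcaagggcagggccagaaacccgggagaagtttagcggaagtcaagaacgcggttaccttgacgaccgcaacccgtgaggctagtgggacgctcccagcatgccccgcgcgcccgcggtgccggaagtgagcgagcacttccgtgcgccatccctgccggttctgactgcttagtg

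RefSeq promoters were found for 29 of the 36 genes. The core TGACNNNGC, searched on both strands, was in the promoter of 5 of these 29 genes (17.2%) and of 14% of 27025 genes. CCAAT, searched on both strands, was in 12 of 29 (41.4%) and in 41.1% of all genes. TCTCGCGAGA, which reads the same on both strands, was in 1 of 29 (3.45%) and in 0.525% of all genes. That 1 gene is Psmd5, from whose promoter the palindrome was chosen, so these shares cannot be compared. Besides Psmb5, the genes with the core were Psmb6, the caspase-like catalytic subunit (chr11:70525338-70525366, plus strand), the ATPase gene Psmc6 (chr14:45329587-45329615, plus strand), the lid gene Psmd12 (chr11:107479278-107479299, plus strand) and the assembly chaperone gene Psmd9 (chr5:123228149-123228177, plus strand). Their windows are shown because Psmb6 passed the test in 1 treated group and the other 3 genes in none. The core, in capitals, lies on the minus strand of Psmc6 and Psmd12.
Psmb6: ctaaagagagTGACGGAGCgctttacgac
Psmc6: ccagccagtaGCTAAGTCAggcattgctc
Psmd12: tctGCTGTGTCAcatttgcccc
Psmd9: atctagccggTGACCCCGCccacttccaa

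Over the 46 treated groups, members were higher in 54 of 1656 gene-by-group tests (3.26%) and lower in 12 (0.725%). Over all genes the shares were 0.583% higher and 0.581% lower. In 16 groups at least 1 member was higher, in 6 groups at least 1 was lower, and in 27 groups none passed the test. Of the calls higher, 3 were of the dim Psma8, all against the same control mice. It was the only member that passed after N-(1-naphthyl)ethylenediamine dihydrochloride and after pentachloronitrobenzene. The member median was above 0 in 26 of 46 groups. At least 5 members passed in malathion, 2,3-benzofuran, 1,4-dichlorobenzene at 300 and 500 mg/kg, naphthalene at 3 ppm, methylene chloride at 3000 ppm and the methylene chloride dose trend. The spread was estimated over all groups of a run. With each of these 6 groups fitted alone with its controls, 6 members passed in malathion and 0 in the other 5 groups.

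**Figure D1:**
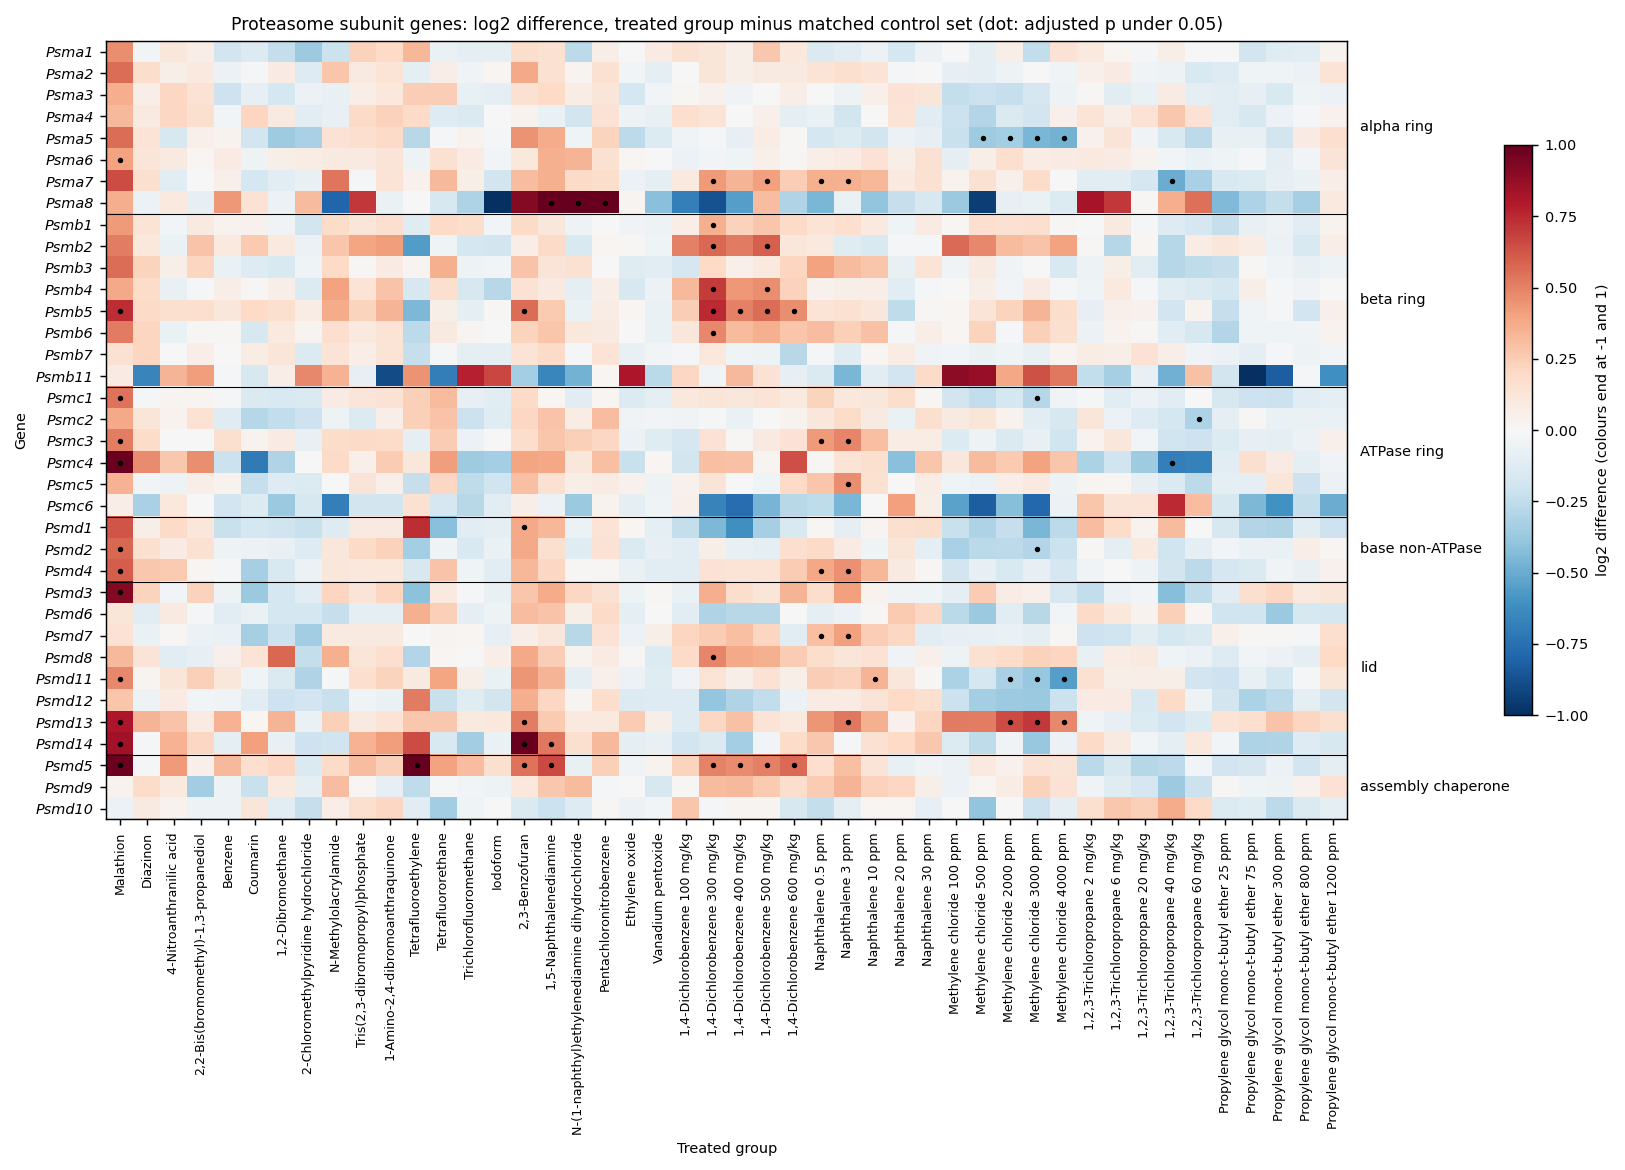
Log2 difference (colour, ends at -1 and 1) of each of the 36 genes (vertical axis, by place in the particle) in each of the 46 treated groups against its control set (horizontal axis). A dot marks an adjusted p under 0.05. Malathion is positive for 35 of 36 genes and carries 12 dots. With methylene chloride, dots lie on blue cells for Psma5, Psmd11, Psmc1 and Psmd2 and on red cells for Psmd13.

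Malathion had the highest member median of the 46 groups. Of 36 members 12 were higher and 0 lower, with 2.63% of all genes higher and 2.18% lower in the same comparison. The member median was 0.47, against -0.03 over all genes, and 35 of 36 differences were positive. The mean over the 36 genes was 11.90 to 12.18 in the 5 malathion mice and 11.59 to 11.64 in the 4 feed control mice, with no overlap.

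In the core particle 1 alpha gene and 1 beta gene passed in malathion. Psmb5 had 12.98, 12.92, 13.03, 12.94 and 12.60 in malathion livers and 12.26, 12.07, 12.36 and 12.22 in feed controls. All malathion mice lay above all controls, with replicate 5 the lowest of them, and Psmb5 was 1.67-fold higher (0.74 ± 0.206, adjusted p 0.0251). The alpha gene Psma6 was higher by less (adjusted p 0.0273). The other proteolytic subunits did not pass: Psmb6, with the caspase-like site, differed by 0.52 (adjusted p 0.254) and Psmb7, with the trypsin-like site, by 0.15 (adjusted p 0.73). The alpha ring gene Psma5 differed by 0.56 (adjusted p 0.268).

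In the cap, 3 of 6 ATPase genes, 2 of 3 other base genes and 4 of 8 lid genes were higher after malathion. The ATPase gene Psmc4 had 12.53, 12.63, 12.94, 13.11 and 13.07 in malathion livers and 11.85, 12.17, 11.18 and 11.82 in feed controls. The groups did not overlap, and Psmc4 was 1.99-fold higher (0.99 ± 0.237, adjusted p 0.00641), with Psmc1 1.46-fold (adjusted p 0.0017) and Psmc3 (0.51, adjusted p 0.0159) also higher. Psmd2, a scaffold of the base, was 1.49-fold higher (adjusted p 0.00277). Psmd4, a ubiquitin receptor, was higher by 0.60 (adjusted p 0.00814), with malathion and control mice overlapping. The scaffold gene Psmd1 differed by 0.63 and did not pass (adjusted p 0.0812).

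Of the lid genes, Psmd3 had 11.79, 11.76, 11.86, 12.14 and 11.43 in malathion livers and 11.19, 10.65, 11.00 and 10.95 in feed controls. Every malathion mouse was above every control, a 1.89-fold difference (0.92 ± 0.187, adjusted p 0.001). Psmd14, the deubiquitinase of the lid, had 12.35, 12.10, 11.69, 11.93 and 11.81 in malathion livers and 11.19, 11.31, 11.29 and 11.09 in controls. These groups did not overlap either, and Psmd14 was 1.79-fold higher (0.84 ± 0.201, adjusted p 0.00641). Psmd11 (0.48, adjusted p 0.024) and Psmd13 (0.805, adjusted p 0.0271) completed the lid genes that rose. For both genes not all other probe sets were higher. Psmd13 spanned 11.04 to 11.43 in malathion livers, median 11.23, and 10.14 to 10.61 in controls.

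Among the assembly chaperones, Psmd5 had 11.55, 11.68, 11.42, 11.49 and 10.96 in malathion livers and 10.47, 10.48, 10.37 and 10.55 in feed controls. The groups were apart and Psmd5 was 1.97-fold higher (0.98 ± 0.185), with the lowest adjusted p of the 36 genes (0.000416). Psmd10, a further chaperone of base assembly, was the lowest of the 36 at -0.06. Malathion livers had lower RNA integrity (4.7 to 6.5 in the 4 arrays with a number) than feed controls (6.7 to 7.2). The summed signals of all 8 lists of cell type markers overlapped between malathion and control livers. Endothelial markers overlapped little, at 6068 to 8134 (median 6231) in malathion livers and 7681 to 9862 (median 8967) in controls. Kupffer cell and macrophage markers were at 5339 to 16240 in malathion livers and 11890 to 18340 in controls. The part of these values in the result was not tested. With the integrity number as a covariate, in a fit that also left out arrays without a number (malathion replicate 3 among them), 6 members passed. Without the 2 malathion arrays with a number under 5, 9 of the 12 passed. Within 1 run code (3 malathion mice, 1 control) 32 of 36 differences of means were positive with a median of 0.482, and within the other (2 malathion mice, 3 controls) 35 of 36 with a median of 0.491. All 12 genes that passed were positive within both codes, from 0.407 to 1.153 and from 0.293 to 1.152. Without feed control replicate 2, the sole control of the first code, 6 members passed.

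**Figure D2:**
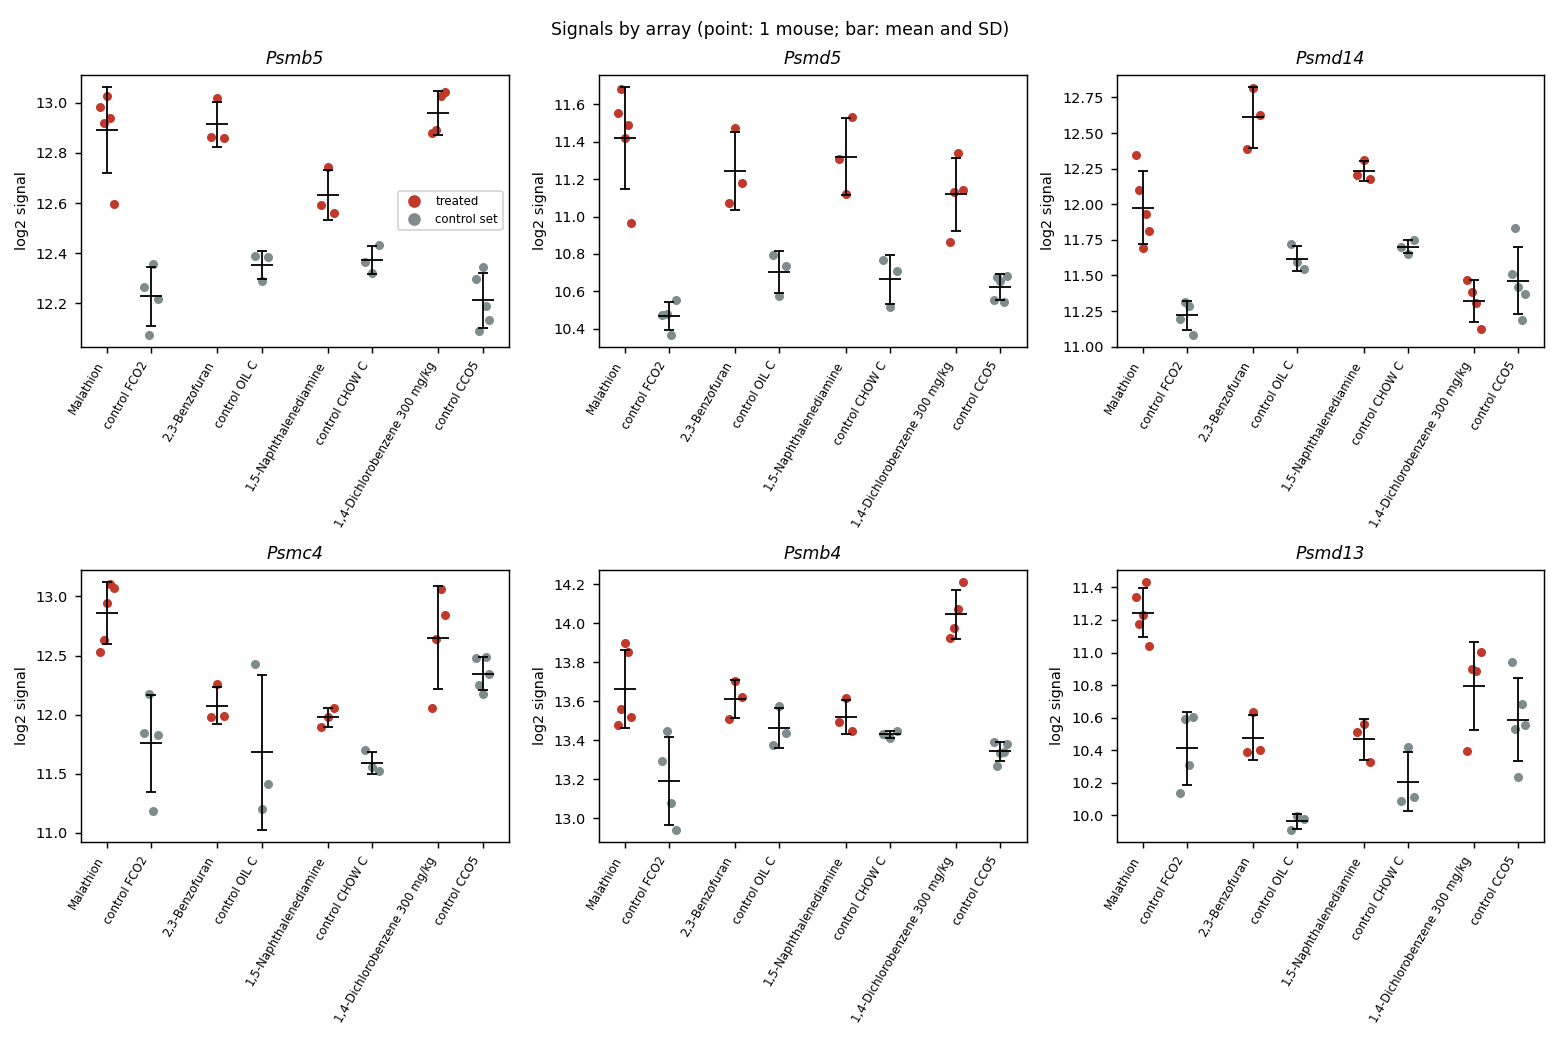
Log2 signal of 6 genes by mouse (points), with mean and SD (bars), in 4 treated groups each left of its control set. Psmb5 and Psmd5 in malathion livers lie above all feed controls, and Psmd14 in 1,4-dichlorobenzene livers overlaps its corn oil controls.

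After 2,3-benzofuran, 5 of 36 members were higher and 0 lower, with 1.93% of all genes higher and 2.18% lower. The member median was 0.28, against -0.12 over all genes, and 34 of 36 differences were positive. Psmd14 had 12.39, 12.82 and 12.62 in 2,3-benzofuran livers and 11.72, 11.60 and 11.54 in corn oil controls. The groups were far apart, a 1.99-fold difference (0.99 ± 0.12, adjusted p 0.000464), and Psmd14 was the member with the largest difference in this group.

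Psmb5 had 12.86, 13.02 and 12.86 in 2,3-benzofuran livers and 12.39, 12.29 and 12.38 in controls. With no overlap, Psmb5 was 1.47-fold higher (0.56 ± 0.102, adjusted p 0.00919). The chaperone gene Psmd5 had 11.07, 11.47 and 11.18 against 10.79, 10.58 and 10.74 in controls (0.54 ± 0.143, adjusted p 0.0493), again without overlap. The lid gene Psmd13 had 10.39, 10.64 and 10.40 against 9.91, 10.00 and 9.98 (0.51 ± 0.13, adjusted p 0.0427), and the scaffold gene Psmd1 had 12.41, 12.70 and 12.58 against 12.25, 12.18 and 12.13 (0.38 ± 0.1, adjusted p 0.0493). In both genes all 3 treated mice lay above all controls.

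The members that did not pass after 2,3-benzofuran included Psmd11 (0.45, adjusted p 0.0568), Psma5 (0.45, adjusted p 0.0931), Psmd4 (0.33, adjusted p 0.0936), Psmb6 (0.22, adjusted p 0.239) and Psmc4 (0.39, adjusted p 0.471). Psmb7 differed by 0.14, and the dim Psmb11 was lowest at -0.34. No ATPase gene and no alpha gene passed here, although all 14 differences in these rings were positive. Of the 8 lists of cell type markers, 5 had a summed signal that was lower in 2,3-benzofuran livers than in controls without overlap. Kupffer cell and macrophage markers (8 genes, 1 passing as lower) were at 10580 to 13340 in 2,3-benzofuran livers and 15520 to 19760 in controls, and stellate cell and fibroblast markers (7 genes, 1 lower) at 8647 to 10820 in treated livers and 11450 to 14020 in controls. Endothelial (6 genes, 5231 to 6436 against 6946 to 8696 in controls), bile duct (5 genes, 167.4 to 272.8 against 463.7 to 611.2 in controls) and hepatocyte markers (8 genes, 382300 to 388400 against 412200 to 455200 in controls) stood apart as well, with 0 genes passing. The median signal of an array was 87.1 to 88.7 in 2,3-benzofuran livers and 112.9 to 122.9 in controls. The part of these values in the result was not tested. The count of 5 fell to 2 without any 1 of the 3 controls or without treated replicate 2 or 3.

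1,5-Naphthalenediamine raised 3 of 36 members and lowered 0, with 1.67% of all genes higher and 2.4% lower. The member median was 0.23, against -0.12 over all genes, and 32 of 36 differences were positive. Psmd5 had 11.31, 11.12 and 11.53 in treated livers and 10.77, 10.52 and 10.71 in feed controls, which did not overlap (1.58-fold, 0.66 ± 0.143, adjusted p 0.0231). Psmd14 had 12.21, 12.31 and 12.18 against 11.70, 11.65 and 11.75, also apart (0.53 ± 0.12, adjusted p 0.027). The other was the dim Psma8 (adjusted p 0.0436), which was also the 1 member that passed after N-(1-naphthyl)ethylenediamine dihydrochloride (adjusted p 0.0455) and after pentachloronitrobenzene (adjusted p 0.045), each time higher than the same 3 control mice. Whether Psma8 was above background on these arrays was not tested, so its folds are not given. The member medians in these 2 groups were 0.02 and 0.13, and 0.286% and 0.225% of all genes were higher. Replicate 2 of 1,5-naphthalenediamine is a rescaled array. Without the rescaled arrays only Psmd5 passed (0.76 ± 0.152, adjusted p 0.029). Of the 8 marker lists, 5 were lower in 1,5-naphthalenediamine livers than in controls without overlap: Kupffer cell and macrophage (9569 to 13060 against 14610 to 18010 in controls), endothelial (5076 to 6453 against 7467 to 9053 in controls, with 1 of 6 genes passing), bile duct (269.3 to 465.6 against 478.3 to 702.9 in controls), hepatocyte (411100 to 434100 against 465700 to 482500 in controls) and pancreas markers (110.3 to 283.6 against 361.6 to 850.6 in controls). The array median was 84.9 to 97.9 in 1,5-naphthalenediamine livers, 93.4 to 110.7 and 102.3 to 107.5 after the ethylenediamine compound and pentachloronitrobenzene, and 124.7 to 136.7 in their shared controls. The part of these values in the result was not tested.

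Related compounds at the same dose were compared in 2 pairs, with p-values adjusted over all genes in each. 1,5-Naphthalenediamine carries an amino group on each ring of naphthalene, whereas the ethylenediamine compound carries a single aminoethylamino chain. The diamine minus the ethylenediamine compound, both at 2000 ppm in feed, was 0.73 for Psmd5 (95% interval 0.42 to 1.04, adjusted p 0.0257), with 0.555% of all genes higher. Psmd5 after the ethylenediamine compound was 10.48, 10.53 and 10.76, overlapping the controls. RNA integrity was 8.8 to 8.9 in the diamine livers and 7.7 to 8.1 after the ethylenediamine compound, and the Gapdh 3′ to 5′ signal ratio, a further measure of RNA quality, 0.747 to 0.965 in the diamine livers and 0.96 to 1.12 after the ethylenediamine compound. Their part in this difference was not tested. No other member passed, the nearest being Psmd1 (0.40, interval 0.18 to 0.61, adjusted p 0.0881) and Psmd11 (0.44, interval 0.18 to 0.70, adjusted p 0.123). 1,4-Dichlorobenzene is benzene with chlorine on opposite ring carbons. At 100 mg/kg by gavage its effect minus that of benzene passed for 0 of 36 members and for 0% of all genes, in a limma fit of runs A and D together with 1 member at an unadjusted p under 0.05. The difference was 0.13 for Psmb5 (interval -0.28 to 0.55) and -0.105 for Psmd5 (interval -0.48 to 0.27).

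After tetrafluoroethylene the only member that passed was Psmd5, with 0.17% of all genes higher. Psmd5 had 11.28, 11.07, 11.05 and 11.17 in tetrafluoroethylene livers and 10.20, 9.72, 9.80 and 10.86 in air controls. All treated mice were above all controls, which were spread widely, and the difference was 1.00 ± 0.189 (adjusted p 0.0261).

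With 1,4-dichlorobenzene at 300 mg/kg 8 of 36 members were higher and 0 lower, with 1.7% of all genes higher and 1.78% lower. The member median was 0.13, against -0.06 over all genes, and 25 of 36 differences were positive. Of the 8 beta ring genes 5 passed, with a ring median of 0.42, while 0 of 6 ATPase genes passed. Whether the rings differ was not tested.

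Psmb5 had 12.88, 12.89, 13.03 and 13.04 at 300 mg/kg and 12.30, 12.09, 12.34, 12.19 and 12.13 in corn oil controls. The groups were well apart, a 1.68-fold difference (0.75 ± 0.115, adjusted p 3.23e-06). Psmb4, a beta subunit without a protease site, had 13.92, 13.98, 14.07 and 14.21 against 13.39, 13.27, 13.34, 13.34 and 13.38 (1.63-fold, 0.70 ± 0.124, adjusted p 7.08e-05), with no overlap. The chaperone gene Psmd5 had 10.86, 11.13, 11.34 and 11.14 against 10.55, 10.67, 10.65, 10.54 and 10.68 (0.50 ± 0.106, adjusted p 0.00206). All 4 treated mice again exceeded all controls.

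The lid gene Psmd8 was higher by 0.49 (adjusted p 0.00238) and the beta gene Psmb2 by 0.57 (adjusted p 0.0219) at 300 mg/kg, both without overlap. Psmb1 (0.35, adjusted p 0.0153), Psmb6 (0.48, adjusted p 0.021) and the alpha gene Psma7 (0.43, adjusted p 0.0213) were higher with treated and control mice overlapping. The other probe sets of Psmb1 differed by -0.25 and 0.07. For Psma7 only 3 of the 4 treated mice lay above all controls. Psmb7 differed by 0.10 (adjusted p 0.637), Psmc4 by 0.30 (adjusted p 0.405), Psmd1 by -0.45 (adjusted p 0.118) and Psmd14 by -0.14 (adjusted p 0.709). Psma5 (-0.01), Psmd4 (0.14) and Psmd11 (0.14) were near 0, and the lowest values were those of the dim Psma8 (-0.88) and the ATPase gene Psmc6 (-0.67).

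At 500 mg/kg 5 members passed, all higher, with 0.901% of all genes higher and 0.44% lower, a member median of 0.11 and a median over all genes of -0.04. Psmb5 had 12.73, 12.74, 12.81 and 12.80 (0.56, adjusted p 0.00113) and Psmd5 had 11.04, 10.99, 11.38 and 11.09 (0.50, adjusted p 0.00187), all above the same controls. Psmb2 (1.51-fold, adjusted p 0.0225), Psmb4 (0.47, adjusted p 0.0266) and Psma7 (0.41, adjusted p 0.0422) were the other 3, without overlap. Psmb6 differed by 0.355 (adjusted p 0.178), Psmd1 by -0.33 (adjusted p 0.413) and Psmd14 by -0.025 (adjusted p 0.973), and the lowest was Psmc6 at -0.47. Values of Psma5, Psmb7, Psmc4, Psmd4 and Psmd11 lay between -0.05 and 0.15.

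Across 100, 300, 400, 500 and 600 mg/kg the Psmb5 differences were 0.25, 0.75, 0.51, 0.56 and 0.46, with the 4 higher doses passing. The Psmd5 differences were 0.22, 0.50, 0.47, 0.50 and 0.57, also passing at the 4 higher doses. Psmb4 gave 0.32, 0.70, 0.44, 0.47 and 0.23, passing at 300 and 500 mg/kg. No member passed at 100 mg/kg, where 0.0385% of all genes were higher and 0.0605% lower. The share of all genes higher was 0.522% at 400 mg/kg and 0.737% at 600 mg/kg. The trend over dose ranks passed for Psmd5 (0.52, adjusted p 3.16e-05), Psmb5 (0.43, adjusted p 0.00392) and Psmc4 (0.55, adjusted p 0.0404), with 1.69% of all genes higher. The Gapdh 3′ to 5′ signal ratio was 0.666 to 0.716 at 100 to 500 mg/kg, 0.778 to 0.824 at 600 mg/kg and 0.755 to 0.919 in controls, and RNA integrity was 7.1 to 7.9 in treated and 7.6 to 7.9 in control livers. With this ratio as a covariate 4 members passed at 300 mg/kg and 2 at 500 mg/kg. No marker list stood apart from controls at 300, 400, 500 or 600 mg/kg.

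**Figure D3:**
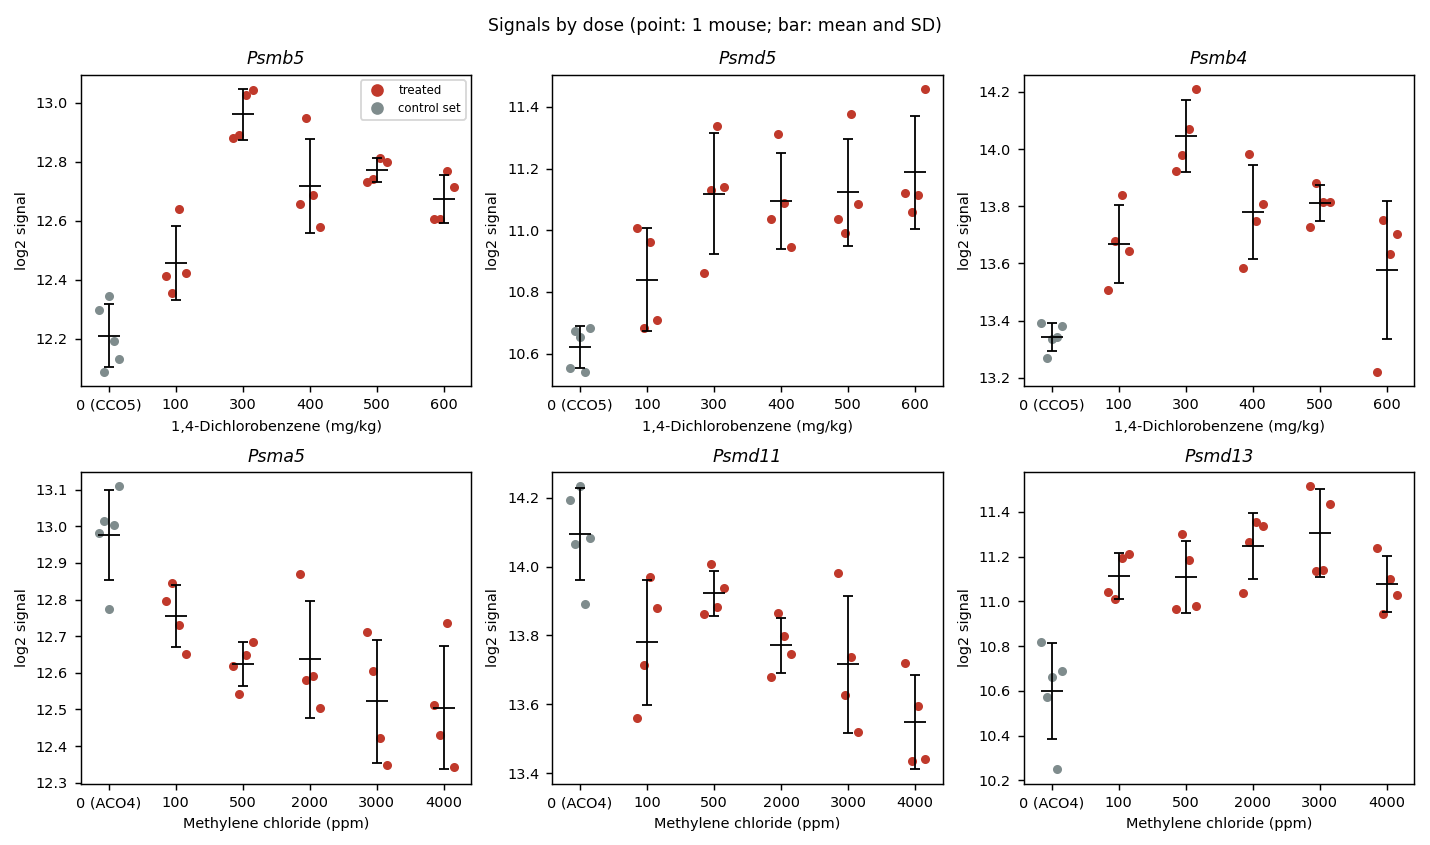
Log2 signal by mouse (points) with mean and SD (bars) against dose, for Psmb5, Psmd5 and Psmb4 in 1,4-dichlorobenzene (mg/kg) and Psma5, Psmd11 and Psmd13 in methylene chloride (ppm), with the control set at dose 0. The Psmb5 mean is highest at 300 mg/kg, and all 4 livers at 4000 ppm lie below all controls for Psma5 and Psmd11.

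The plot of the 6 groups by place sets the parts of the particle side by side. After malathion the medians were 0.43 in the alpha ring, 0.47 in the beta ring, 0.44 in the ATPase ring, 0.60 in the other base genes, 0.40 in the lid and 0.04 in the assembly chaperones, of which Psmd5 alone passed. After 2,3-benzofuran they were 0.245, 0.17, 0.20, 0.38, 0.37 and 0.11 in the same order. With 1,4-dichlorobenzene at 300 mg/kg they were 0.08, 0.42, 0.12, 0.06, 0.17 and 0.32. These are descriptions of a few genes each, with no test between places.

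**Figure D4:**
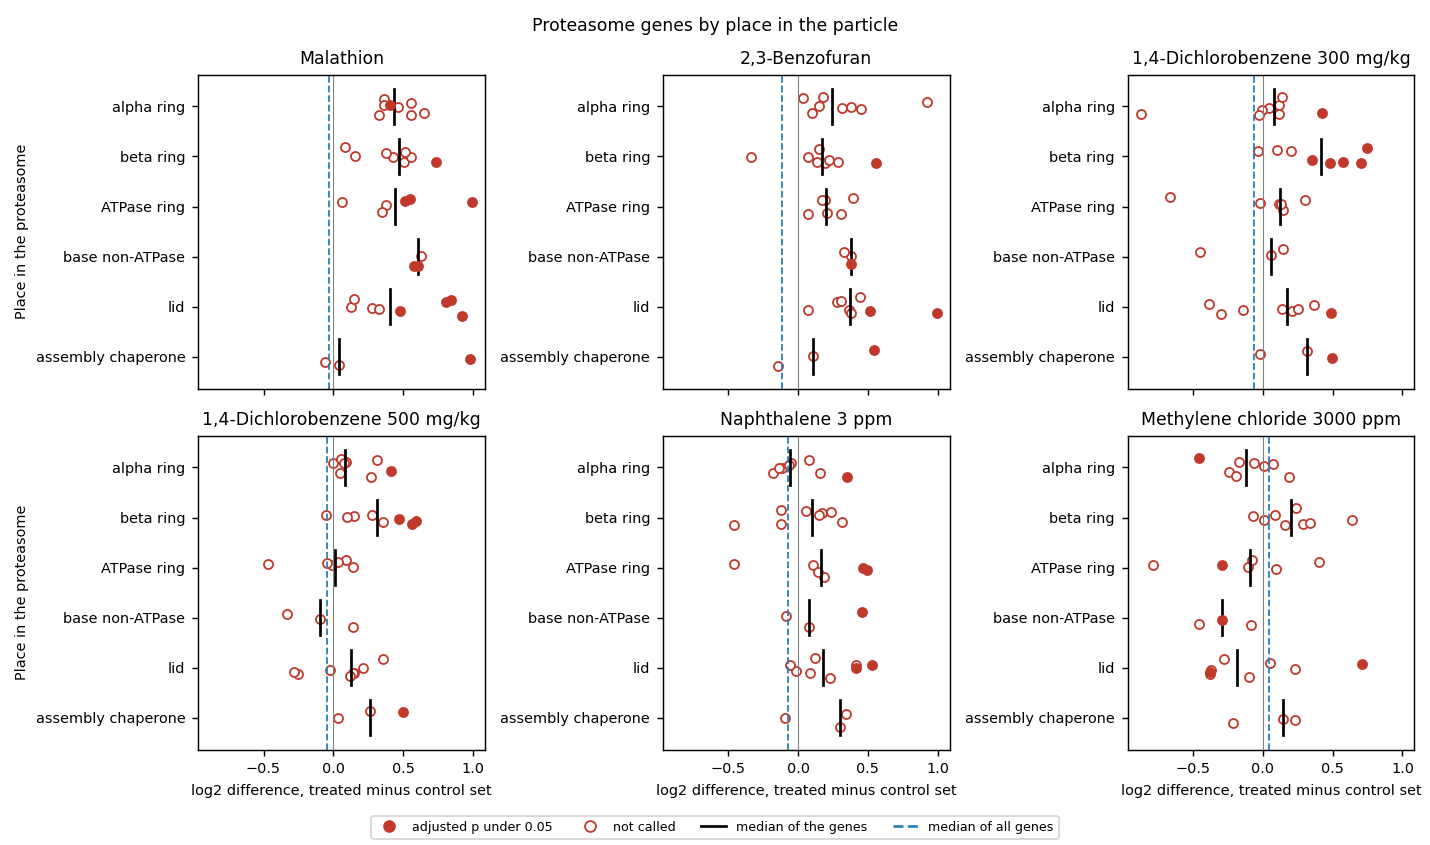
Log2 difference (horizontal axis) of each member by place in the proteasome (vertical axis) in 6 treated groups. Filled points passed the test, black bars are medians of the place and the dashed line is the median of all genes, which lies left of all malathion medians.

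Naphthalene at 3 ppm raised 6 of 36 members and lowered 0, but 4.46% of all genes were higher and 4.06% lower in this group. The member median was 0.11, against -0.07 over all genes. The lid gene Psmd7 had 11.46, 11.31, 11.25 and 11.14 in naphthalene livers and 11.06, 10.99, 10.91, 10.88 and 10.56 in air controls, without overlap (0.41 ± 0.086, adjusted p 0.0012). The ATPase gene Psmc3 had 12.84, 12.93, 13.01 and 12.90 against 12.13, 12.46, 12.46, 12.50 and 12.61 (0.49, adjusted p 0.00129). The ATPase gene Psmc5 had 11.93, 12.01, 12.06 and 12.44 against 11.65, 11.67, 11.58, 11.66 and 11.66 (1.38-fold, adjusted p 0.00159). For both ATPase genes every treated mouse lay above every control.

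Psmd4 (0.46, adjusted p 0.00498) and Psmd13 (0.53, adjusted p 0.0129) were also higher at 3 ppm without overlap, and Psma7 with overlap (0.35, adjusted p 0.0386). No beta ring gene passed, Psmb5 differing by 0.15 (adjusted p 0.464) and Psmb6 by 0.24 (adjusted p 0.258). Psmd14 was at -0.01, Psma5 at -0.14, Psmb7 at -0.125, Psmd1 at -0.09, Psmc4 at 0.14 and Psmd11 at 0.23, and none of these passed. The lowest member was Psmc6 at -0.46 (adjusted p 0.412).

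No member passed the trend over naphthalene doses, for which 0.0385% of all genes were higher and 0.077% lower. Psmc3 differed by 0.42, 0.49, 0.30, 0.07 and 0.08 at 0.5, 3, 10, 20 and 30 ppm. At 0.5 ppm Psma7, Psmc3, Psmd4 and Psmd7 were higher (2.98% of all genes higher and 2.3% lower), at 10 ppm Psmd11 (0.676% higher and 0.621% lower) and at 20 ppm (0.11% higher, 0.0495% lower) and 30 ppm (0%) 0 members. RNA integrity was 9.1 to 9.3 at 0.5, 3 and 10 ppm, 8.4 to 8.7 at 20 and 30 ppm and 8.5 to 8.9 in air controls. The summed signal of 8 hepatocyte markers was 498000 to 569800 at 3 ppm and 358300 to 436700 in controls, with 4 of 8 higher, and the array median was 76.2 to 83.8 at 3 ppm and 86.8 to 112.4 in controls. Their part in the result was not tested. With the integrity number as a covariate, and arrays of the run without a number left out, 3 members passed at 3 ppm.

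With methylene chloride members passed in both directions. At 3000 ppm 4 of 36 were lower (11.11%), with 2.84% of all genes lower. Only Psmd13 was higher, 1 of 36 (2.78%), which is near the 2.52% of all genes higher. That call rests on its brightest probe set, as the others differed by -0.41 and 0.53. With the mean of a gene's probe sets no member passed at this dose. The member median was -0.07, against 0.05 over all genes. The alpha ring gene Psma5 had 12.71, 12.61, 12.42 and 12.35 at 3000 ppm and 12.98, 13.02, 12.78, 13.00 and 13.11 in air controls. All 4 treated mice lay below all controls, and Psma5 fell to 0.729 of the control level (adjusted p 0.000737). The lid gene Psmd11 had 13.98, 13.63, 13.74 and 13.52 against 14.20, 14.07, 14.23, 13.89 and 14.08 (-0.38, adjusted p 0.00313), with 1 treated mouse inside the control range.

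The scaffold gene Psmd2 (-0.29, adjusted p 0.0265, with overlap) and the ATPase gene Psmc1 (-0.29, adjusted p 0.03, without) were the other members lower at 3000 ppm. The lid gene Psmd13 went the other way, with 11.51, 11.14, 11.14 and 11.44 against 10.82, 10.57, 10.66, 10.25 and 10.69 (0.71 ± 0.145, adjusted p 0.000668), all treated mice above all controls. Psmb5 (0.34, adjusted p 0.0657), Psmc4 (0.40, adjusted p 0.205), Psmd1 (-0.46, adjusted p 0.0998) and Psmd14 (-0.38, adjusted p 0.161) did not pass, nor did Psmb6 (0.24), Psmb7 (-0.07) or Psmd4 (-0.08). Psmc6 was lowest at -0.78 (adjusted p 0.146).

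Across 100, 500, 2000, 3000 and 4000 ppm Psma5 differed by -0.22, -0.35, -0.34, -0.46 and -0.47, passing from 500 ppm on. Psmd11 differed by -0.31, -0.17, -0.32, -0.38 and -0.55, passing at 2000 ppm and above. Psmd13 differed by 0.52, 0.51, 0.65, 0.71 and 0.48, passing at 2000 ppm and above. In these groups 0.676%, 0.671% and 1.87% of all genes were higher at 500, 2000 and 4000 ppm, and 0.462%, 0.835% and 3% lower. The trend passed for Psmd11 (-0.44, adjusted p 7.44e-06), Psma5 (-0.44, adjusted p 4.23e-05) and Psmc2 (-0.21, adjusted p 0.0387), all lower, and for Psmd13 (0.45, adjusted p 0.0123) and Psmd8 (0.28, adjusted p 0.0391), both higher, against 3.08% higher and 4.47% lower over all genes. Summed endothelial markers (6 genes, 2 passing as lower) were 6394 to 6670 at 3000 ppm and 8032 to 9052 in controls. Kupffer cell and macrophage markers (8 genes, 1 lower) were also apart, at 11060 to 13490 in treated livers and 15200 to 16430 in controls, and so were the 2 erythroid markers, 1 of them higher, at 1098 to 1747 in treated livers and 537.3 to 1020 in controls. Their part in the result was not tested. RNA integrity was 9.1 to 9.3 at 3000 ppm and 8.9 to 9.1 in controls, where 3 of 4 and 3 of 5 arrays had a number. With it as a covariate, and arrays without a number left out, 1 member was lower at 3000 ppm and 0 were higher in the trend.

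With 1,2,3-trichloropropane the members that passed were all lower. At 40 mg/kg Psma7 had 12.38, 12.34, 12.25 and 12.27 in treated livers and 12.71, 12.61, 13.04, 12.83 and 12.84 in corn oil controls (-0.50, adjusted p 0.00906), and Psmc4 had 12.01, 12.24, 12.01 and 12.23 against 12.77, 12.38, 12.79, 12.92 and 13.20 (-0.69, adjusted p 0.0307). Neither pair of groups overlapped, and 1.36% of all genes were lower. At 60 mg/kg the ATPase gene Psmc2 was lower (-0.31, adjusted p 0.0387), with 0.291% of all genes. The trend passed for Psmc2 (-0.36, adjusted p 0.000535), Psmc4 (-0.66, adjusted p 0.0123), Psma7 (-0.41, adjusted p 0.0135) and Psma5 (-0.30, adjusted p 0.0404), with 0.731% of all genes lower. Endothelial markers were 8686 to 9360 at 40 mg/kg, 7763 to 8769 at 60 mg/kg and 9470 to 10170 in controls, and bile duct markers 422.6 to 539.7 at 40 mg/kg and 573.5 to 752.7 in controls. Their part in the result was not tested.

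By gene, Psmd5 was higher in 8 groups from 5 chemicals, the most of any member: malathion, 2,3-benzofuran, 1,5-naphthalenediamine, tetrafluoroethylene and the 4 higher doses of 1,4-dichlorobenzene. Psmb5 was higher in 6 groups from 3 chemicals and Psmd13, by its brightest probe set, in 6 groups from 4. Psmd14 was higher in 3 groups from 3 chemicals in 2 runs, each against a control set of its own. Psma5 was lower in 4 groups, all of methylene chloride, and Psmd11 higher in 2 groups and lower in 3. In all 22 members, the dim Psma8 among them, were higher in at least 1 group and 7 lower. The 12 that passed in no group were Psma1, Psma2, Psma3, Psma4, Psmb3, Psmb7, Psmb11, Psmc6, Psmd6, Psmd9, Psmd10 and Psmd12.

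The members differed in how closely they followed the rest. Over the 46 groups, which share control sets and runs, the differences of Psma2 correlated at r = 0.89 with the median of the other members and those of Psmd4 at 0.84. Psmc6 (0.01), Psmd10 (-0.04) and the dim Psmb11 (-0.26) did not follow them. Of all other genes, those most like the member median over the 46 groups were Abhd4 (r = 0.83), Vcp (0.83), Tuba4a (0.82), Chmp6 (0.79) and Pgd (0.79), and without malathion the values were 0.79, 0.81, 0.77, 0.715 and 0.695. Over 18157 genes r had a median of -0.10, with the 5th percentile at -0.44 and the 95th at 0.40.

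The known targets of NRF2 were set beside the members. Of 26 listed 23 were measured, and 17 were higher after malathion (median 1.46), 17 after 2,3-benzofuran (1.19), 15 after 1,5-naphthalenediamine (1.08), 15 and 14 with 1,4-dichlorobenzene at 300 mg/kg (0.77) and 500 mg/kg (0.81), and 3 each with naphthalene at 3 ppm (0.24) and methylene chloride at 3000 ppm (0.27), with 0 lower in each. Nqo1, a quinone reductase, was higher by 1.51 after malathion (adjusted p 1.61e-05), by 1.77 after 2,3-benzofuran (adjusted p 0.00606) and by 0.76 with 1,4-dichlorobenzene at 300 mg/kg (adjusted p 0.00529). Abcc4, a basolateral export pump, was higher by 4.12, 3.99 and 1.93 in these 3 groups. The calls in the 2 lists did not always coincide. A target was higher in 24 of the 46 groups, and in 7 of these no member passed. Coumarin was 1 of the 7. The others had 2 targets higher (4-nitroanthranilic acid, 1,2-dibromoethane) or 1. Those with 1 were 2-chloromethylpyridine hydrochloride, naphthalene at 20 ppm and 1,2,3-trichloropropane at 6 mg/kg (with 1 lower) and 20 mg/kg. In these others between 1 and 20 of all 18193 genes were higher, so few calls were possible. After coumarin 8 targets were higher (median 0.34) with a member median of -0.07, where 0.297% of all genes were higher and 0.0824% lower. With 1,2,3-trichloropropane 7 and 9 targets were higher at 40 and 60 mg/kg, where the members that passed were lower. With 1,4-dichlorobenzene at 400 and 600 mg/kg 10 and 13 targets and 2 members each were higher. After 1-amino-2,4-dibromoanthraquinone and tris(2,3-dibromopropyl)phosphate the target medians were 0.78 and 0.66 and the member medians 0.14 and 0.11. In each of these groups 30 of 36 member differences were positive, and 0% of all genes passed. The messages of NRF2 (Nfe2l2) and NRF1 (Nfe2l1) did not pass in malathion, 2,3-benzofuran, 1,5-naphthalenediamine, 1,4-dichlorobenzene at 300 or 500 mg/kg, naphthalene at 3 ppm or methylene chloride at 3000 ppm, at 0.51 (adjusted p 0.29) and 0.11 (adjusted p 0.864) after malathion.

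**Figure D5:**
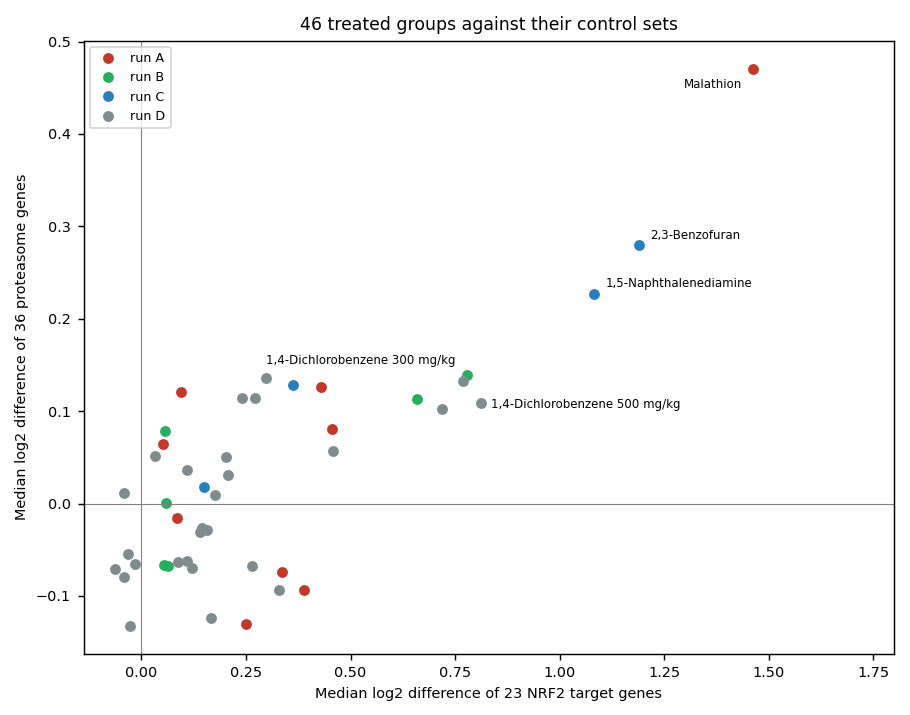
Median log2 difference of the 36 members (vertical axis) against that of 23 NRF2 targets (horizontal axis) in the 46 treated groups (points, coloured by run). Malathion, 2,3-benzofuran and 1,5-naphthalenediamine lie highest on both axes, at 0.47, 0.28 and 0.23 for the members.

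The immunoproteasome genes replace catalytic beta subunits and are inducible by interferon. Of the 4 measured genes of the immunoproteasome and its PA28 cap, 0 passed after malathion, with Psmb8 at -0.96 (adjusted p 0.102), Psmb9 at -0.50 (adjusted p 0.541) and Psmb10 at -0.375 (adjusted p 0.52). After 2,3-benzofuran Psmb8 (-0.80, adjusted p 0.0111) and Psmb9 (0.618 of the control level, adjusted p 0.0362) were lower, while 5 members were higher. With 1,4-dichlorobenzene at 300 mg/kg Psmb10 (0.78, adjusted p 0.0138) and the cap gene Psme1 (1.46-fold, adjusted p 0.0251) were higher. None of the 4 passed with 1,4-dichlorobenzene at 500 mg/kg, naphthalene at 3 ppm or methylene chloride at 3000 ppm. The difference between the lists was not tested.

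Of 8 measured genes of the route that releases and processes NRF1, Vcp, the ATPase that hands ubiquitin-tagged proteins to the proteasome, and Syvn1 (0.85, adjusted p 0.0396), a ubiquitin ligase of the endoplasmic reticulum, were higher after malathion. Vcp was also named for its likeness to the members over these groups, so its calls are no independent case. Vcp alone was higher after 2,3-benzofuran, 1,5-naphthalenediamine and naphthalene at 3 ppm. With 1,4-dichlorobenzene at 300 mg/kg Syvn1 (-1.24, adjusted p 0.00648) and its partner Sel1l (-0.82, adjusted p 0.000606) were lower, and both were lower at 500 mg/kg. Of 8 measured assembly factors, 3 of which are members, Psmd5 was the one that passed in malathion, 2,3-benzofuran and both doses of 1,4-dichlorobenzene. Psmg3, a chaperone of alpha ring assembly, was higher with naphthalene at 3 ppm (0.41, adjusted p 0.039) and Pomp, which matures the beta rings, lower with methylene chloride at 3000 ppm (-0.41, adjusted p 0.0161).

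Of the 36 members 19 had more than 1 probe set. For the 41 calls in the 6 treated groups with at least 5, 31 other probe sets of the same genes were above the array median on most of the 242 arrays, and 25 of these had the same sign. The exceptions included Psmd13, whose 2 other probe sets differed by -0.13 and 0.65 after malathion and by -0.44 and 0.08 after 2,3-benzofuran. They differed by -0.55 and 0.37 with naphthalene at 3 ppm, and by -0.41 (mean signal 811.9) and 0.53 with methylene chloride at 3000 ppm. For Psma5 the second probe set differed by -0.18 there, and for Psmd11 the 5 others by between -0.46 and -0.19.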

How the data were processed

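The deposited values are probe set signals on a linear intensity scale, made with GCOS 1.0 per the submitters' processing notes. Further steps are not given in the sources used here. Of 45101 probe sets, 64 are controls and 34945 have exactly 1 gene symbol, and each of 18193 genes was read from its brightest probe set, by the mean of the 242 arrays. In 240 arrays the mean trimmed by 2% at each end was 500 in the authors' values, and 2 arrays were rescaled to it, at 148.4 (vanadium pentoxide replicate 4) and 84.53 (1,5-naphthalenediamine replicate 2). Values are log2 of the signal plus 17.3, with no filter on low values, so that folds of dim genes are understated. The number of arrays limits the precision.

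limma 3.58.1 (R 4.3.3, package data.table, version 1.17.8) was fitted per run (runs A and D together for the comparison with benzene) with 1 mean per group, and with the run code as a block in run A, where fitted differences can depart from differences of means. Tests were two-sided eBayes tests, adjusted by Benjamini-Hochberg over all genes. Control sets of the same run and vehicle were assigned by the animal numbers that follow the treated ones, since the labels state no pairing. Dose trends are fitted changes from control to the top dose over equally spaced ranks. The method was also run on simulated data with independent noise and changes of at least 1 log2 unit. Most differences reported here are smaller, so their detection was not tested by it. Plots were drawn with matplotlib 3.10.9 in Python 3.11.15, with tables in pandas 2.3.3 and numpy 2.4.6. The rule for named members took Psma5, Psmb5, Psmb6, Psmb7, Psmc4, Psmd1, Psmd4, Psmd11 and Psmd14, and, where at least 5 members passed, the 6 with the lowest adjusted p and the highest and lowest. Other named members were chosen after their values were seen. The members and lists were chosen with earlier results of these data known. Alternatives are given in the closing section.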

Additional observations from a re-analysis of the deposited data

Results flagged for a closer look

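In groups of 4 to 10 mice the gap of the highest or lowest mouse was set against the group's range (Dixon's ratio), for the mean of the 36 genes in 54 groups and for 67 sets of a called gene and a group. Chance gives about 1 in 20 such outliers in each family, and 1 of 54 and 5 of 67 were found. The mean of the 36 genes was 11.602 in diazinon replicate 4, and 11.724 to 11.746 in the other 3 mice. Psmb5 was 12.595 in malathion replicate 5, and 12.918 to 13.028 in the other 4. Psma7 was 12.379 in replicate 1 of 1,4-dichlorobenzene at 300 mg/kg, and 12.943 to 12.995 in the other 3. Psmd4 was 12.714 in replicate 4 of naphthalene at 3 ppm, and 12.858 to 12.866 in the other 3. Among controls, Psmc5 was 11.582 in replicate 3 of the air set ACO5, with the others at 11.651 to 11.671, and Psmd8 was 12.328 in replicate 5 of the corn oil set CCO5, with the others at 12.584 to 12.638. The Psmd5 effect differed between 1,5-naphthalenediamine and N-(1-naphthyl)ethylenediamine dihydrochloride by 0.73 on the log2 scale in the limma test of the difference (adjusted p 0.0257).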

How the results depend on the processing

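No paired analysis was possible because replicate numbers within groups only name mice. Of 46 results for named members, 41 kept direction and call under quantile normalisation, 37 with pooled controls, 24 with the mean of a gene's probe sets and 8 when the 2 groups were fitted alone, and Psmd5 and Psmd14 after malathion kept them in every alternative. With the mean of probe sets Psmd7 at naphthalene 3 ppm turned to -0.237, and Psmc1 and Psmd2 at methylene chloride 3000 ppm to 0.015 and 0.103. The counts below are members passing, with the reported counts 12 (malathion), 5 (2,3-benzofuran), 6 (naphthalene 3 ppm), 8 and 5 (1,4-dichlorobenzene 300 and 500 mg/kg), 1 higher and 4 lower (methylene chloride 3000 ppm), 2 higher and 3 lower (its trend), 3 (1,5-naphthalenediamine), 1 (that diamine minus the ethylenediamine compound), 3 and 4 (trends of 1,4-dichlorobenzene, higher, and 1,2,3-trichloropropane, lower), and 17 higher and 8 lower in the remaining groups, which include 1,5-naphthalenediamine.

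With the 2 groups alone, or dosed groups alone for trends, malathion gave 6, the other 5 groups 0 each, 1,5-naphthalenediamine 0, the remaining groups 0 higher and 0 lower, the methylene chloride trend 0 higher, the trends of 1,2,3-trichloropropane 2, 1,4-dichlorobenzene 0 and naphthalene 7 lower. At 1.5-fold or more malathion gave 7, 2,3-benzofuran 1, naphthalene 0, 1,4-dichlorobenzene 2 and 1, methylene chloride 0 lower and 0 in its trend, the remaining groups 6 higher and 1 lower, and the trends 1 (1,2,3-trichloropropane) and 0 (1,4-dichlorobenzene). With the mean of probe sets malathion gave 6, 2,3-benzofuran 2, naphthalene 3 higher and 1 lower, methylene chloride 0 and 0, its trend 1 and 1, and the remaining groups 2 lower. With pooled controls naphthalene gave 12, 1,4-dichlorobenzene 5 and 2, the methylene chloride trend 1 higher, the remaining groups 27 higher and the 1,2,3-trichloropropane trend 2. With quantile normalisation naphthalene gave 1 lower, methylene chloride 2 higher, the 1,4-dichlorobenzene trend 1 lower and 1,5-naphthalenediamine 1. Without dim genes, where fewer genes are tested, malathion gave 19, 2,3-benzofuran 13, naphthalene 10, methylene chloride 2 higher, the remaining groups 27 higher, the 1,4-dichlorobenzene trend 5, 1,5-naphthalenediamine 5 and its difference from the ethylenediamine compound 4. On a linear dose scale the methylene chloride trend gave 0 higher and the naphthalene trend 1 lower.

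The next alternatives were added after seeing the data. With RNA integrity as a covariate malathion gave 6, 2,3-benzofuran 2, naphthalene 3, 1,4-dichlorobenzene at 300 mg/kg 4, methylene chloride 1 lower and its trend 0 higher. Arrays without an integrity number were left out of these fits, and the part of this in the counts was not tested. With the Gapdh ratio as a covariate 1,4-dichlorobenzene gave 4 and 2 and the methylene chloride trend 1 higher. With the values as deposited, which leave 2 arrays off the common scale, 2,3-benzofuran gave 0, naphthalene 1, 1,4-dichlorobenzene 2 and 0, methylene chloride 0 lower and its trend 0 higher, the remaining groups 1 higher and 24 lower, the trends 0 (1,2,3-trichloropropane) and 1 (1,4-dichlorobenzene), and 1,5-naphthalenediamine 0. Without the 2 rescaled arrays 1,5-naphthalenediamine gave 1. Where no construction is named, the cause was not tested.

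Leaving out 1 mouse at a time gave 6 to 14 members for malathion, 2 to 4 for 2,3-benzofuran, 3 to 10 for naphthalene, 4 to 11 higher and 0 to 1 lower for 1,4-dichlorobenzene at 300 mg/kg, 1 to 5 at 500 mg/kg, 1 to 2 higher and 2 to 6 lower for methylene chloride, and 1 to 3 higher and 2 to 3 lower for its trend. The malathion count was 6 without control replicate 2, the sole feed control of its run code. The 2,3-benzofuran count was 2 without any 1 of its 3 controls or treated replicate 2 or 3. The count was 3 without ACO5 replicate 1 and 10 without replicate 5 for naphthalene, and for 1,4-dichlorobenzene at 300 mg/kg 4 without treated replicate 3 or 4, with 1 lower without CCO5 replicate 4 or treated replicate 1. At 500 mg/kg it was 2 without CCO5 replicate 2 or treated replicate 2 or 4, 3 without CCO5 replicate 3 and 1 without treated replicate 3. For methylene chloride 2 were lower without ACO4 replicate 1 or 2 or treated replicate 3 or 4, and 2 higher without ACO4 replicate 3, and its trend gave 1 higher without ACO4 replicate 2, 4 or 5, replicate 1 at 100 or 3000 ppm, or replicate 1, 3 or 4 at 4000 ppm. Groups of 3 to 5 mice and shared control sets limit all counts.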

Other observations

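Of 13 measured genes listed as further proteasome regulators and associated proteins, at least 1 passed in 8 of the 46 groups, with 7 calls higher and 9 lower in all. Over all genes 0.583% of gene-by-group tests were higher and 0.581% lower. After malathion, where 2.63% of all genes were higher, 3 of the 13 were higher: Rad23b (0.58, limma adjusted p 0.00269) and Ubqln2 (0.59, adjusted p 0.0159), which shuttle ubiquitin-tagged proteins to the proteasome, and Ubqln4 (0.61, adjusted p 0.0494). None of the 13 passed after 2,3-benzofuran, where Rad23b was at 0.46 (adjusted p 0.0569). With methylene chloride at 3000 ppm Rad23b was higher (0.33, adjusted p 0.00838) and Ubqln2 (-0.35, adjusted p 0.0315) and Usp14, a deubiquitinase of the proteasome (-0.54, adjusted p 0.03), lower. Ubqln2 was also lower at 4000 ppm (-0.485, adjusted p 0.00126) and with 1,2,3-trichloropropane at 40 mg/kg (-0.37, adjusted p 0.0436) and 60 mg/kg (-0.43, adjusted p 0.0266). Naphthalene at 3 ppm gave 1 higher and 1 lower. The 300 ppm group of propylene glycol mono-t-butyl ether gave 1 higher (40 of all 18193 genes higher) and 1,2,3-trichloropropane at 6 mg/kg 2 lower (47 of all 18193 genes lower). Of 11 measured cytosolic heat shock genes 0 passed after malathion and 2 were higher after 2,3-benzofuran, among them Hspb1, a small heat shock protein (3.27, adjusted p 2.66e-06), which was at -0.03 after malathion (adjusted p 0.979). None of the 5 listed ubiquitin and activating enzyme genes had a probe set naming 1 gene.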
